A study of Mus musculus with 4 samples.

Results

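The mitochondrial ribosomal protein genes were taken as all rows whose single gene symbol was Mrpl or Mrps followed by a number, with an optional final letter and without pseudogenes. This gave 75 genes, 47 named Mrpl and 28 named Mrps, out of 30142 genes with 1 symbol and 65956 rows in all. Each had 1 row, so no choice between rows was needed. A RefSeq gene table (GRCm38.p6) holds 78 genes with such names. The other 3, Mrpl30, Mrpl53 and Mrps6, had no row that carried their symbol alone and were left out. The rows of Mrpl33 and Mrpl48 were linked to more than 1 gene ID, so their values may not be of 1 gene alone.

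4T1 is a line of mouse mammary carcinoma cells that forms metastases and is studied as a stand-in for triple-negative breast cancer, and its RNA was put on whole-transcript arrays. All 4 arrays held RNA of cultured 4T1 cells, 2 with a scramble control (NC) and 2 with MCT-1 silencing (shMCT-1), which the design text calls independent biological replicates. The shMCT-1 cells were grown from clones selected for 2 weeks at 0.5 μg/ml puromycin, and the sources used here do not say whether the NC cells had the same selection or whether replicates were separate clones. P-values therefore measure the spread between these samples, which may be technical.

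Mitochondria carry their own ribosomes, which translate the few messenger RNAs encoded in mitochondrial DNA into core subunits of the respiratory chain and ATP synthase. The ribosomal RNAs come from mitochondrial DNA, but every protein of the particle is encoded in the nucleus, made in the cytosol and imported. Many of these proteins descend from bacterial ribosomal proteins, and others have no bacterial counterpart and surround or replace parts of the shortened ribosomal RNA. The Mrpl names belong to the large subunit, which joins amino acids, and the Mrps names to the small subunit, which reads the messenger RNA, with the exceptions of Mrps18a and Mrps30, which sit in the large subunit. Mrps36 is now assigned to the alpha-ketoglutarate dehydrogenase complex rather than to the ribosome.

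Promoter sequences describe the members outside the expression values. RefSeq windows of 300 bases, 250 before and 50 after the transcript start, were found for 66 of the 75 members. The motif CCGGAAG, bound by ETS factors such as GABP, was in the windows of 25 members (37.9%), against 12.9% of protein-coding genes. A match to GCGCNTGCG, the core of the motif of the transcription factor NRF1, was in 17 members (25.8% against 9.68%), and AAGATGGCG, a YY1 motif, in 8 (12.1% against 2.14%). In all, 41 members (62.1%) held at least 1 of these 3 motifs, against 21.9% of protein-coding genes. The Sp1 motif GGGCGG was in 33 of the 66 members, against 49.2% of protein-coding genes. For the E-box CACGTG the shares were 7.58% and 8.91%, and for TATAAA 7.58% and 14.8%. Both strands were searched, and no ETS match overlapped a YY1 match in any member. A match describes letters and is not evidence of binding. The protein-coding genes were not matched to the members for expression or base composition.

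The stretches below lie upstream of some of the members with a window, and not all of them hold a match. They are given 5′ to 3′ on the gene's strand, from RefSeq (GRCm38.p6), ending at the base before the transcript start, with matches to the 6 motifs in capitals. Mrps33 (chr6:39810937-39811186, minus strand) and Mrps9 (chr1:42850983-42851232, plus strand) are shown because they had the lowest p of the members with a window, and Mrpl47 (chr3:32736756-32737005, minus strand) for its large difference. Mrpl12 (chr11:120484387-120484636, plus strand) shows an NRF1 match 81 bases before the start and Mrps18a (chr17:46110754-46111003, plus strand) an ETS match 26 bases before it. Mrps11 (chr7:78783090-78783130, plus strand) is shown because these 41 bases are all that separate it from Mrpl46, which runs the other way.
Mrps33: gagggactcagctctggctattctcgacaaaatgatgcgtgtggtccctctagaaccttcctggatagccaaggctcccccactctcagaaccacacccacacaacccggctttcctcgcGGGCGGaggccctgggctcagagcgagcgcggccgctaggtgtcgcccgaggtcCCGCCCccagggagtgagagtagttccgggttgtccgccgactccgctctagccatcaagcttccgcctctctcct
Mrps9: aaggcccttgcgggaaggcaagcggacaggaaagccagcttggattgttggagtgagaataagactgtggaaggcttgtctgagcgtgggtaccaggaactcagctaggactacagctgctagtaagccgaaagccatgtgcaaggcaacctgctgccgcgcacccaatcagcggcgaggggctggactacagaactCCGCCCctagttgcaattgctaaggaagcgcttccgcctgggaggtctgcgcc
Mrpl47: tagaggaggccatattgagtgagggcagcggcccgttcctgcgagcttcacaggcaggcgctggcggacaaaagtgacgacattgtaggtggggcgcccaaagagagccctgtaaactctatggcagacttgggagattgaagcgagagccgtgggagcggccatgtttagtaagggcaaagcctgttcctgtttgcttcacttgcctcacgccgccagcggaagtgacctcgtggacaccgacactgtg
Mrpl12: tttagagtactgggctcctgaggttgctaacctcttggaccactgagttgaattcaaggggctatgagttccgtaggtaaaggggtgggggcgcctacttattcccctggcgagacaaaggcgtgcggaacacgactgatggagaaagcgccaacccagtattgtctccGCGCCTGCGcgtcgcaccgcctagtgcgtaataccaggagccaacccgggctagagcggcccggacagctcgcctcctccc
Mrps18a: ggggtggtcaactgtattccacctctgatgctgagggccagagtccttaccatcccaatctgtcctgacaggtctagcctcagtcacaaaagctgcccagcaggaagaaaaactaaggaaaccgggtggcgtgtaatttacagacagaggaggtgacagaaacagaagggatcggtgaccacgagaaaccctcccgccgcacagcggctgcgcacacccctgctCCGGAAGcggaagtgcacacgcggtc
Mrps11: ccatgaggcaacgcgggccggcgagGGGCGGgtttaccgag
In these stretches the Mrps33 sequence held 2 Sp1 matches, Mrps9 held 1, and Mrpl47 held 0 matches to the 6 motifs. The stretches leave out the bases after the transcript start, which the windows counted above include. Over the whole window Mrps33 held 1 ETS and 3 Sp1 matches, and Mrps9 held 1 NRF1 and 1 Sp1 match. The windows of Mrps18a and Mrps11 each held 1 YY1 match that is not printed, and that of Mrpl47 held 0 matches. The single Sp1 match between Mrps11 and Mrpl46 serves as letters upstream of both genes.

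The arrays as a whole set limits on every comparison. Their medians ran from 3.68 to 3.73 on the log2 scale. No row passed an adjusted p of 0.05 in limma's test over all rows (0 of 65956), while 3698 rows (5.61%) had an unadjusted p under 0.05. Mcts1, which encodes MCT-1, was 7.86 and 8.05 in the NC arrays and 7.81 and 7.89 in the others, a log2 difference of -0.10 (SE 0.122, 95% interval -0.42 to 0.22, adjusted p = 0.945, limma). A lower level of the targeted transcript was thus not detected, and directions below refer to the arrays as labelled. The epithelial markers Epcam, Cdh1, Krt8, Krt18 and Krt19 were all bright, from 12.36 to 16.73. Endothelial, fibroblast and lymphocyte markers stayed between 2.80 and 4.24, and of the 5 macrophage markers Ptprc and Adgre1 did so too (3.26 to 3.49), whereas Cd14 (8.58 to 9.11), Cd68 (8.26 to 10.15) and Csf1r (4.47 to 6.07) did not.

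Most mitochondrial ribosomal protein genes had a slightly higher mean in the arrays labelled shMCT-1. Of the 75 members, 59 (78.7%) had a positive difference, against 54.1% of all genes and 51.6% of the 10758 other genes within the members' signal range (5.28 to 13.89). The median log2 difference was 0.15, a 1.11-fold higher level, against 0.014 over all genes, and single members ran from -0.22 to 0.69. After adjustment over all rows 0 members passed (lowest adjusted p = 0.882, limma), as did 0% of all genes. At an unadjusted p under 0.05 there were 2 higher members (2.67%), against 2.32% of all genes and 3.5% of genes as bright, and 0 lower ones, against 3.28% and 5.63%. The share of higher members at that level was thus near the background in this fit, which has no term for the replicate number. With such a term it was 18.7% (14 members, 0 of them lower), against 11.5% of all genes in either direction (limma). After adjustment 0 members passed there too.

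Both arrays labelled shMCT-1 lay above both NC arrays in 12 members (16%), against 19% of all genes and 17.7% of genes as bright, a share near the background. They lay below both in 1 member, Mrps16 (1.33%), against 16% and 21.2%. In 9 members (12%) the difference was larger than the range between the arrays of either group, against 23.1% of all genes and 26.9% of genes as bright.

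**Figure D1:**
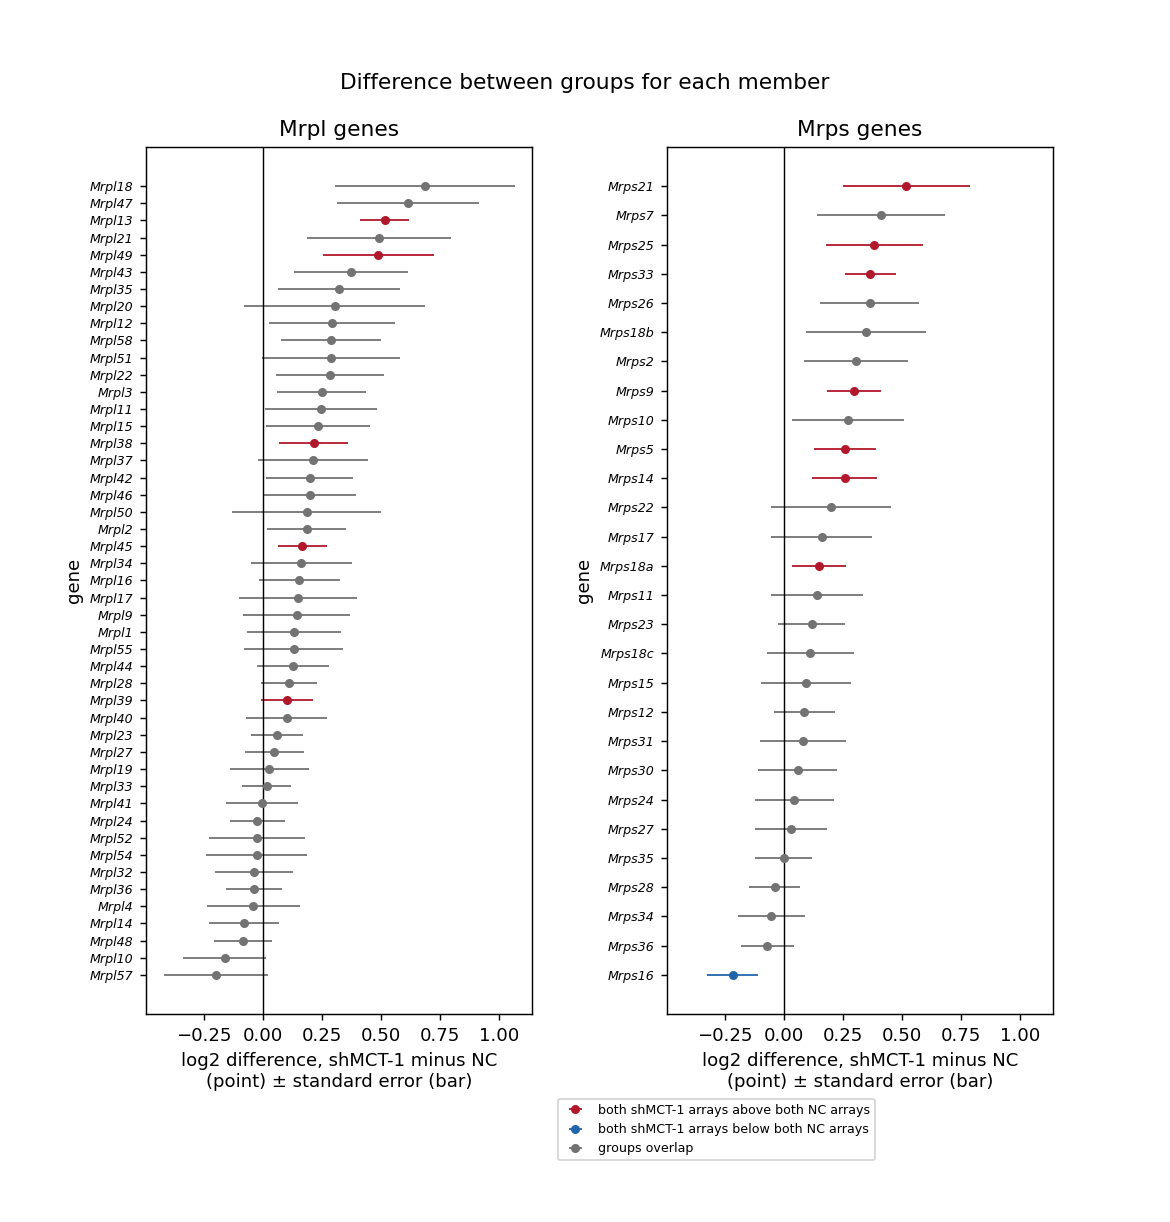
Log2 difference, shMCT-1 minus NC (horizontal axis), for each Mrpl gene (left) and Mrps gene (right), with the standard error from limma as a bar; red and blue points mark genes whose 2 groups do not overlap. Of 75 members, 59 lie right of 0, and 12 are red and 1 is blue.

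The members' median gaps between the arrays of 1 group were larger than their median difference between the groups. The members' median signal was 8.31 and 8.62 on NC replicates 1 and 2 and 8.38 and 8.78 on the arrays labelled shMCT-1. NC replicate 1 was thus the lowest and shMCT-1 replicate 2 the highest, while NC replicate 2 lay above shMCT-1 replicate 1. Within NC, replicate 2 was above replicate 1 in 67 members (89.3%, against 51.2% of all genes and 56.4% of genes as bright), with a median gap of 0.33 and a span from -0.30 to 1.05. Within the arrays labelled shMCT-1, replicate 2 was above replicate 1 in 71 members (94.7%, against 47% and 63.1%), with a median gap of 0.29 and a span from -0.15 to 0.63. Both gaps were about 2 times the median difference of 0.15 between the groups.

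Taken array by array, NC replicate 1 held the lowest of the 4 values in 56 members (74.7%, against 31% of all genes and 37.6% of genes as bright) and shMCT-1 replicate 2 the highest in 55 (73.3%, against 26.7% and 36.8%). shMCT-1 replicate 1 was the lowest array in 14 members (18.7%, against 19.2% and 25.6%) and NC replicate 2 the highest in 15 (20%, against 18.7% and 19.4%). Replicate 1 of shMCT-1 was above NC replicate 1 in 60 members (80%, against 56.4% of all genes and 49.5% of genes as bright, median 0.16). It was above NC replicate 2 in 14 members (18.7%, against 54.4% and 40.6%, median -0.14). Replicate 2 of shMCT-1 was above NC replicate 2 in 60 members (80%, against 49.7% and 52.6%, median 0.12). It was above NC replicate 1 in 71 members (94.7%, against 49.3% and 55.8%, median 0.43). These pairs share arrays and are not independent. The excess of positive differences therefore held against the NC array of the same number. It was largest between shMCT-1 replicate 2 and NC replicate 1, and turned between shMCT-1 replicate 1 and NC replicate 2.

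**Figure D2:**
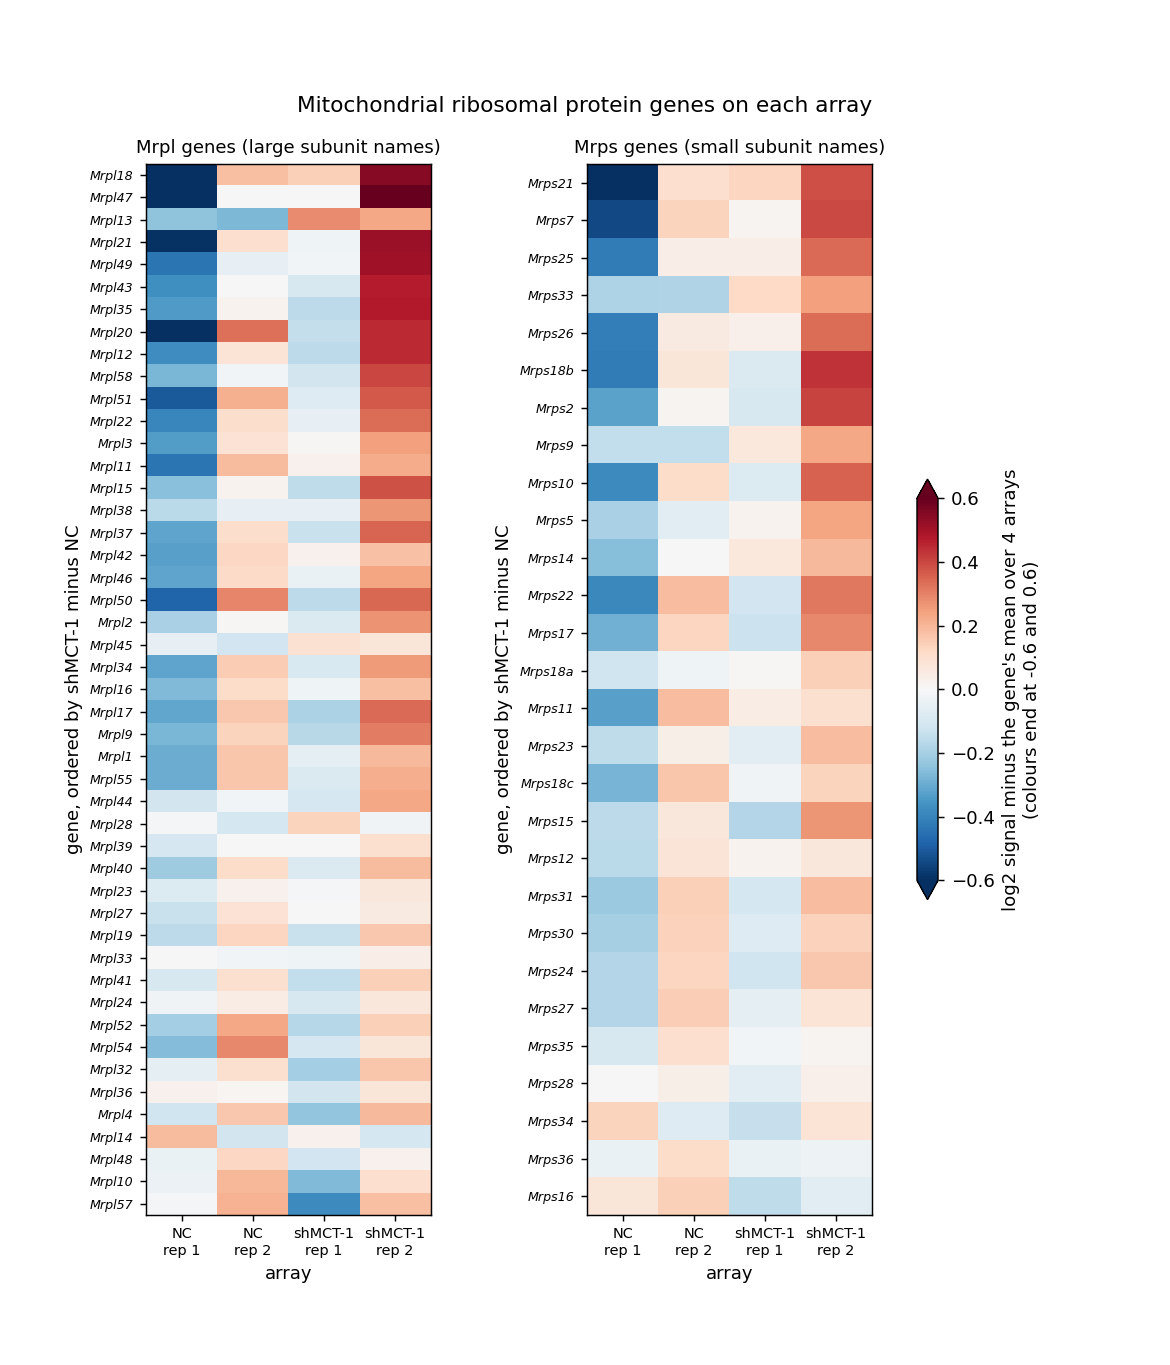
Log2 signal of each member on each array, as the distance from that gene's mean over the 4 arrays (colour, blue below and red above), for Mrpl genes (left) and Mrps genes (right) ordered by difference. NC replicate 1 is blue in most rows and shMCT-1 replicate 2 red, and these were the lowest array in 56 and the highest in 55 of the 75 members.

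Leaving out 1 array changed the shift. Each omission also left the groups unequal in replicate number, and replicate 2 lay above replicate 1 in 67 members (NC) and 71 (shMCT-1). The values below therefore cannot separate the shift from that gap. The members' median difference was -0.021 with 35 higher without NC replicate 1, below the median of 0.010 over all genes. Without shMCT-1 replicate 2 it was 0.0065 with 39 higher, below 0.022 over all genes. It was 0.33 with 67 higher without NC replicate 2, against 0.016 over all genes. Without shMCT-1 replicate 1 it was 0.29 with 71 higher, against -0.0028 over all genes. Members at an unadjusted p under 0.05 in either direction then numbered 1 (1.33%) without NC replicate 1, against 2.51% of all genes, and 1 (1.33%) without shMCT-1 replicate 2, against 3.22% (limma). They numbered 11 (14.7%) without NC replicate 2, where the share of all genes was 9.19%, and 3 (4%) without shMCT-1 replicate 1, against 3.44%. Of the 75 members, 30 kept their direction whichever array was left out, 28 of them higher and 2, Mrpl48 and Mrps16, lower. The share of all genes that did so was not computed, so this count does not set the members apart. In the members, NC replicate 1 (lowest in 56) and shMCT-1 replicate 2 (highest in 55) were extreme about equally often. In interferon genes NC replicate 1 stood apart from the other arrays. The 8 measured of 10 such genes lay at a median of 2.75 from their 4-array mean there, at -0.98 on NC replicate 2, and at -0.49 and -1.16 on the arrays labelled shMCT-1. Those with the lowest p were Usp18 (12.30 there, 5.72 to 7.33 on the others), Isg15 (8.06, 5.47 to 6.23) and Oas2 (8.23, 3.77 to 4.20). The part of this array's difference in the members' values was not tested.

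Core proteins of the large subunit with bacterial counterparts included the member with the lowest unadjusted p, 1 of the 2 below 0.05. Mrpl13, the counterpart of bacterial L13, was 9.79 and 9.76 in NC and 10.32 and 10.26 in the arrays labelled shMCT-1. The groups were well apart and the arrays within each nearly level, and Mrpl13 was 1 of 4 members in which replicate 1 was the higher array in both groups. It was 1.43-fold higher (log2 difference 0.52, SE 0.103, 95% interval 0.24 to 0.79, adjusted p = 0.882, limma). Its difference stayed between 0.49 and 0.54 with any 1 array left out.

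Mrpl18, a counterpart of bacterial L18 in the central protuberance, where a transfer RNA takes the place of the bacterial 5S ribosomal RNA, had the largest difference of all members. It was 8.43 and 9.47 in NC and 9.43 and 9.84 in the arrays labelled shMCT-1. NC replicate 1 alone was low, NC replicate 2 lay just above shMCT-1 replicate 1, and the groups overlapped. The difference of 0.69 had a 95% interval from -0.31 to 1.68 (SE 0.380, adjusted p = 0.898, limma). Leaving out NC replicate 1 or NC replicate 2 gave 0.16 or 1.21. Mrpl20, another bacterial counterpart, had a similar NC pair of 9.19 and 10.16 and was 9.69 and 10.28 in the arrays labelled shMCT-1. Its difference of 0.30 turned to -0.18 without NC replicate 1.

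At the exit tunnel, where the new chain leaves the ribosome, 8 of 9 measured members were higher, with a median of 0.15. Mrpl47, the counterpart of bacterial L29 beside the tunnel, was 8.71 and 9.31 in NC and 9.31 and 9.94 in the arrays labelled shMCT-1. Its pairs were shifted by nearly the same step within each group, so that NC replicate 2 and shMCT-1 replicate 1 were level, and the difference of 0.62 (SE 0.302, adjusted p = 0.892, limma) came to 0.31 or 0.30 when NC replicate 1 or shMCT-1 replicate 2 was left out. Mrpl45, which anchors the large subunit to the inner mitochondrial membrane, was 9.81 and 9.75 in NC and 9.96 and 9.94 in the arrays labelled shMCT-1. Its groups did not overlap, but the difference was only 0.17 (SE 0.104, adjusted p = 0.903, limma). Other tunnel members were at 0.28 (Mrpl22, 0.037 without NC replicate 1), 0.19 (Mrpl50), 0.15 (Mrpl17), 0.13 (Mrpl44), 0.10 (Mrpl39), 0.060 (Mrpl23) and -0.025 (Mrpl24).

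Of the 4 measured members at the stalk that recruits translation factors, 2 were higher and 2 lower. Mrpl12, the protein of the flexible stalk, was 8.86 and 9.32 in NC and 9.08 and 9.68 in the arrays labelled shMCT-1, with a difference of 0.29. Mrpl11, at the stalk base, was 8.46 and 9.09 against 8.93 and 9.12, with a difference of 0.25. Mrpl10, which carries the copies of Mrpl12, was 11.56 and 11.79 against 11.33 and 11.70, with a difference of -0.16. Mrpl54 was 5.72 and 6.27 against 5.88 and 6.06, with a difference of -0.026. In all 4 the groups overlapped, and each of these differences turned sign when 1 array was left out.

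Among large subunit proteins without a bacterial counterpart, 14 of 19 were higher, with a median of 0.17. Mrpl49 was 8.86 and 9.25 in NC and 9.28 and 9.81 in the arrays labelled shMCT-1, so the groups did not overlap although the arrays within each differed by 0.39 and 0.52. The difference of 0.49 (SE 0.236, adjusted p = 0.892, limma) ran from 0.23, with shMCT-1 replicate 2 left out, to 0.75, with shMCT-1 replicate 1 left out. Mrpl51 was 6.77 and 7.49 against 7.19 and 7.64, with overlapping groups and a difference of 0.29. Mrpl57, a short protein, was 7.59 and 7.81 against 7.22 and 7.78, where shMCT-1 replicate 1 alone was low. Its difference of -0.20 was 0.083 without that array. Mrpl42 had the brightest row of the members and Mrpl41 the dimmest, and their differences were 0.20 and -0.004.

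Small subunit genes gave the other member at an unadjusted p under 0.05. Mrps33, a protein without a bacterial counterpart, was 8.35 and 8.36 in NC and 8.66 and 8.78 in the arrays labelled shMCT-1. The NC arrays were level and both other arrays lay above them. It was 1.29-fold higher (log2 difference 0.37, SE 0.109, 95% interval 0.081 to 0.65, adjusted p = 0.882, limma), and between 0.30 and 0.43 with any 1 array left out. With limma's variance trend, or when tested against a 1.2-fold change, its unadjusted p no longer passed 0.05. Mrps9, a counterpart of bacterial S9 in the head of the small subunit, was 9.13 and 9.13 in NC and 9.35 and 9.52 in the arrays labelled shMCT-1. Its difference of 0.30 (SE 0.116, adjusted p = 0.882, limma) likewise exceeded the range within either group.

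The small subunit genes with bacterial counterparts were higher in 14 of 16, with a median of 0.21. Mrps5, which lies where messenger RNA enters, was 8.92 and 9.05 in NC and 9.14 and 9.35 in the arrays labelled shMCT-1. Mrps14, a protein of the head, was 7.31 and 7.56 against 7.63 and 7.76. Both had a difference of 0.26, and in both the groups did not overlap. Leaving out shMCT-1 replicate 2 gave 0.15 for Mrps5, and leaving out NC replicate 1 gave 0.13 for Mrps14. Mrps21 was 8.15 and 8.87 in NC and 8.90 and 9.16 in the arrays labelled shMCT-1, where shMCT-1 replicate 1 was only just above NC replicate 2. Its difference of 0.52 was 0.16 without NC replicate 1. Mrps17, the brightest Mrps row, was at 0.16 with overlapping groups. The 9 small subunit genes without a bacterial counterpart had a median of 0.12, with 7 higher.

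Mrps16, a counterpart of bacterial S16 that is needed to build the small subunit, was the 1 member with both arrays labelled shMCT-1 below both NC arrays. It was 6.39 and 6.47 in NC and 6.17 and 6.26 in the others, a 1.16-fold lower level (log2 difference -0.22, SE 0.108, 95% interval -0.50 to 0.067, adjusted p = 0.894, limma). Its difference stayed between -0.26 and -0.17 with any 1 array left out. Mrps12, the protein of the decoding site, was 6.59 and 6.83 in NC and 6.77 and 6.82 in the arrays labelled shMCT-1, with overlapping groups and a difference of 0.088. Mrps36, the member no longer counted as ribosomal, was at -0.070, and the remaining lower members among those with the lowest p were Mrpl14 (-0.080), Mrpl48 (-0.085), Mrps34 (-0.054) and Mrps28 (-0.039).

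The 3 Mrps18 copies, which descend from the bacterial S18 gene and occupy different places, had different values. Mrps18b was 9.69 and 10.18 in NC and 10.02 and 10.54 in the arrays labelled shMCT-1 (difference 0.35, SE 0.254). That difference ran from 0.090 to 0.61 with 1 array left out. Mrps18a, the copy of the large subunit, was 6.64 and 6.74 against 6.77 and 6.91 (0.15, SE 0.115), and its groups did not overlap. Mrps18c was 9.24 and 9.68 against 9.50 and 9.65 (0.11, SE 0.184). None passed (adjusted p from 0.906 to 0.968, limma), and differences between the copies were not tested.

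By name, the 47 Mrpl genes had a median difference of 0.15 with 36 higher, and the 28 Mrps genes 0.14 with 23 higher. By origin, 38 of 46 members with a bacterial counterpart and 21 of 28 without one were higher, both with a median of 0.15. By subunit and origin at once, the medians were 0.21 for small subunit genes with a bacterial counterpart and 0.12 for those without, and 0.15 and 0.17 in the large subunit. Differences between these groups were not tested. The median difference was 0.16 with and 0.15 without an ETS match, 0.17 with and 0.15 without an NRF1 match, and 0.14 with and 0.16 without a YY1 match. The neighbours Mrps11 and Mrpl46, which share the stretch of 41 bases printed above, were at 0.14 and 0.20.

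**Figure D3:**
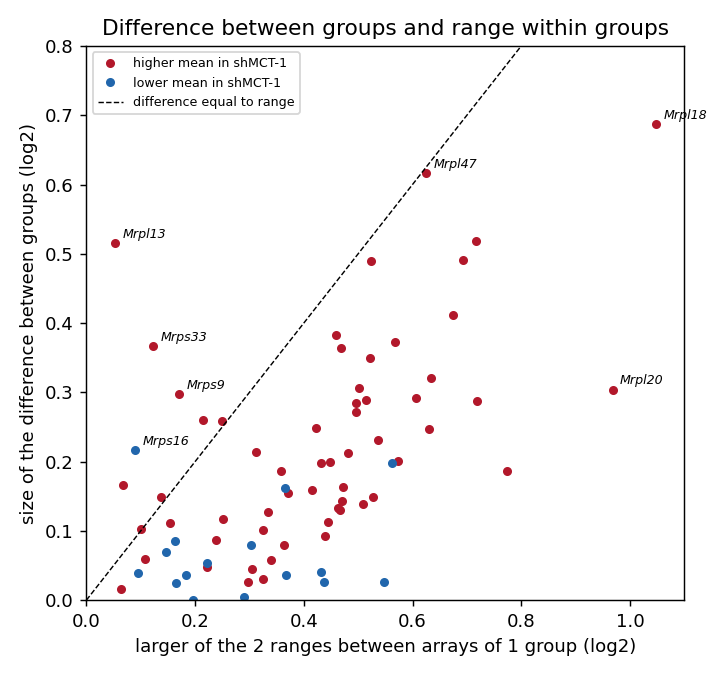
Size of the log2 difference between groups (vertical axis) against the larger of the 2 ranges between arrays of 1 group (horizontal axis), 1 point per member, red for higher and blue for lower means in the arrays labelled shMCT-1. The 9 points above the dashed line of equality include Mrpl13, Mrps33, Mrps9 and Mrps16, while Mrpl18 and Mrpl20 lie far right of it.

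Median differences in the rest of the machinery for mitochondrial gene expression were smaller. Of 26 measured genes for ribosome assembly and rRNA modification, 15 were higher (median 0.082), where 54.1% of all genes were. At an unadjusted p under 0.05 (limma) 1 was higher and 0 lower, against 2.32% and 3.28% of all genes. The higher one was Mrm3, a methyltransferase of the large ribosomal RNA (difference 0.43, SE 0.163). Rbfa, a small subunit maturation factor, was 8.94 and 9.05 in NC and 8.49 and 8.84 in the arrays labelled shMCT-1 (-0.33, SE 0.158), and Noa1, a GTPase of ribosome assembly, was at 0.27 (SE 0.133). Of 14 translation factors and messenger RNA binding genes 7 were higher (median 0.0003), and Oxa1l, the membrane insertase to which the ribosome docks, was 12.97 and 13.00 in NC and 12.49 and 12.72 in the arrays labelled shMCT-1 (-0.39, SE 0.127). In the opposite direction, Lrpprc, which stabilises mitochondrial messenger RNAs, was 9.71 and 10.11 against 10.23 and 10.45 (0.43, SE 0.181), and Mrrf, the ribosome recycling factor, was 7.78 and 7.81 against 8.03 and 8.04 (0.24, SE 0.102). Of 20 genes for transfer RNA charging 15 were higher (median 0.048), with Aars2, the alanyl-tRNA synthetase, at 0.28 (SE 0.105), Wars2, the tryptophanyl-tRNA synthetase, at 0.22 (SE 0.115) and Fars2, the phenylalanyl-tRNA synthetase, at -0.21 (SE 0.107). At an unadjusted p under 0.05 (limma) the translation list held 0 higher genes and 1 lower, Oxa1l. The charging list held 1 higher, Aars2, and 0 lower. No gene of these lists passed after adjustment over all rows (limma, lowest adjusted p = 0.882).

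Over the 13 genes that copy and transcribe mitochondrial DNA the median was 0.050, with 8 higher. Tfb2m, a transcription factor of mitochondrial RNA polymerase, was 9.33 and 9.86 in NC and 10.03 and 10.47 in the arrays labelled shMCT-1 (0.65, SE 0.249), and Ssbp1, the single-stranded DNA binding protein, was 6.60 and 7.01 against 7.22 and 7.67 (0.64, SE 0.225). In both, NC replicate 1 was lowest and shMCT-1 replicate 2 highest. They were the 2 higher genes of this list at an unadjusted p under 0.05 (limma), with 0 lower, against 2.32% and 3.28% of all genes. Polg, the mitochondrial DNA polymerase, was 6.75 and 6.76 in NC and 6.53 and 6.51 in the arrays labelled shMCT-1 (-0.24, SE 0.102). Of 4 measured mitochondrial ribosome proteins without an Mrp name 2 were higher, Dap3 at 0.27 and Ptcd3 at 0.35, while Chchd1 was at -0.32. Among 9 nuclear regulators of mitochondrial genes 7 were higher (median 0.066), with Gabpa, the DNA-binding subunit of GABP, at 0.18 (SE 0.128), Sp1 at 0.16 (SE 0.119) and Pprc1, a coactivator, at 0.40 (SE 0.308). None of these genes passed (adjusted p from 0.882 to 0.910, limma).

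The members' median distances from array to array spanned more than those of related lists. Relative to each gene's 4-array mean they were -0.24 and 0.099 in NC and -0.080 and 0.22 in the arrays labelled shMCT-1. For the 32 measured cytosolic ribosomal protein genes they were -0.13, 0.0043, 0.018 and 0.11, and for the 79 genes of the respiratory chain and ATP synthase -0.086, 0.029, -0.0039 and 0.074. In these latter lists the median difference between the groups was 0.10, with 27 of 32 higher, and 0.050, with 51 of 79 higher. Rpl7a (0.33), Rpl37a (0.43) and Rpl38 (0.26) had the lowest p of the cytosolic list. Ndufc1 (0.47), Ndufa4 (0.47) and Ndufs8 (0.33) had that of the respiratory list. At an unadjusted p under 0.05 (limma) 1 cytosolic and 4 respiratory genes were higher, against 2.32% of all genes, and 0 were lower, against 3.28%. Genes as bright as the members stayed between -0.042 and 0.034 on every array. Whether the lists differ was not tested, and the 2 related lists were not matched to the members for signal. Mean signals ran from 5.43 to 18.1 in the cytosolic list and from 2.46 to 17.5 in the respiratory list. Both arrays labelled shMCT-1 lay above both NC arrays in 14 of 32 cytosolic and 26 of 79 respiratory genes, against 19% of all genes. They lay below both in 2 and 13, against 16% of all genes. Fewer cells and less RNA per cell of any subset of the culture cannot be told apart in such bulk samples.

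**Figure D4:**
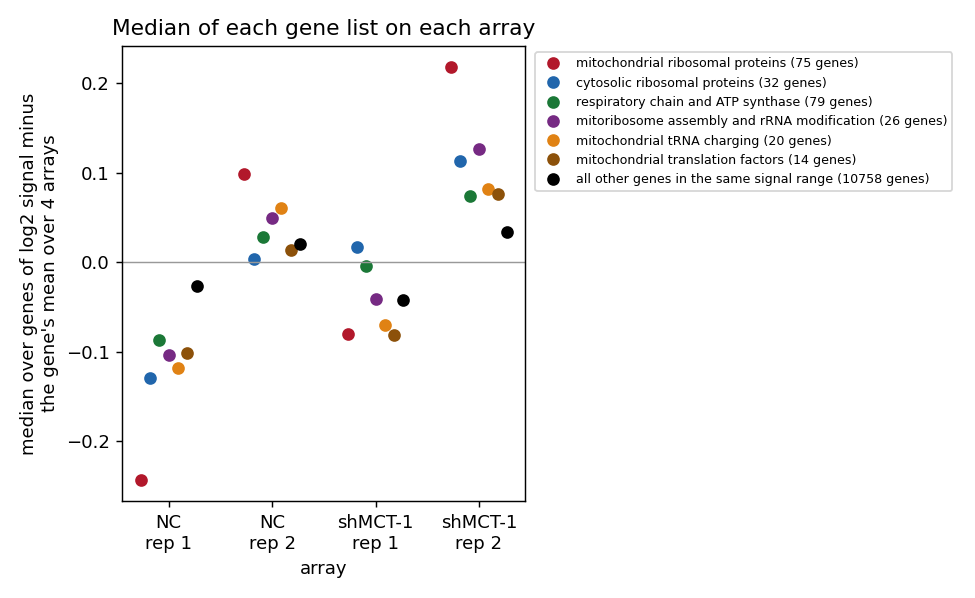
Median over the genes of each list of the log2 signal minus the gene's own mean over the 4 arrays (vertical axis) on each array (horizontal axis). The mitochondrial ribosomal proteins (red) span -0.24 on NC replicate 1 to 0.22 on shMCT-1 replicate 2, and other genes in the same signal range (black) stay between -0.042 and 0.034.

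Over the genome the 75 members lay on 17 chromosomes, with 11 on chromosome 11 and 8 on chromosome 17. On the 4 chromosomes with the most members the median difference was 0.17 (chromosome 11), 0.17 (chromosome 17), 0.30 (chromosome 6, 6 members) and 0.11 (chromosome 7, 6 members). The 3 members on chromosome 14, Mrps16, Mrpl57 and Mrpl52, all had a lower mean (median -0.20). The median over all genes of that chromosome was -0.017. Mrpl57 and Mrpl52 (-0.026) turned sign in some fits with 1 array left out. The 5 members on chromosome 13 also had a negative median (-0.036, against -0.012 over all its genes).

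**Figure D5:**
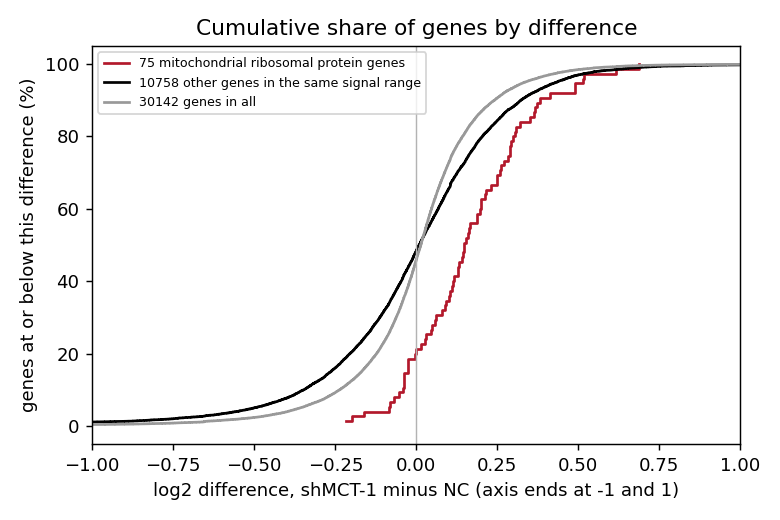
Cumulative share of genes (vertical axis, percent) by log2 difference, shMCT-1 minus NC (horizontal axis), for the 75 members (red), 10758 other genes in the same signal range (black) and all 30142 genes (grey). The red curve lies to the right of the others over most of its course, with a median of 0.15, and ends at 0.69.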

How the data were processed

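The series held 4 whole-transcript arrays, 2 per group, of 4T1 cells. The authors deposited values on a log2 scale, from 1.29 to 19.9. The submitters' processing notes name Affymetrix Expression Console and RMA, with versions, options, genome build and any later step not given in the sources used here. Rows were named through the platform's probe table, and 827 symbols were updated by gene ID with a RefSeq gene table (GRCm38.p6). Of 65956 rows, 30604 had 1 symbol, 2146 had several and 33206 were not listed. This left 30142 genes, each represented by its brightest row, and every column of the table was used.

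Differences (shMCT-1 minus NC) were fitted on all rows with limma 3.58.1 in R 4.3.3 (lmFit and eBayes, two-sided, Benjamini-Hochberg over all rows, threshold 0.05, 2 residual degrees of freedom). The code was also run on simulated arrays with known changes, whose results are not given. Their noise was independent, without a gap shared by same-numbered arrays, so they do not bear on that gap. RMA can compress the log2 differences of dim and very bright rows. The number of arrays limits the precision. Promoter windows came from RefSeq. Alternatives covered moderation, filters, scaling, array weights, the replicate number, gene naming and leaving out each array. The members, lists and tests were chosen with earlier results of these data known. Genes were named by a rule: the 8 lowest p per direction, the brightest, dimmest and most variable members, the Mrps18 copies, members at the stalk, tunnel and decoding site, and the 3 lowest p of each other list. The remaining members and markers named were chosen after their values were seen.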

Additional observations from a re-analysis of the deposited data

How the results depend on the processing

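With 4 arrays, the members' median difference of 0.15 was smaller than their median gaps within NC (0.33) and within the arrays labelled shMCT-1 (0.29). The fit gave 0 rows past an adjusted p of 0.05 under every planned setting, and 1 when arrays were centred on the genes as bright as the members, a setting chosen after seeing the data. Members at an unadjusted p under 0.05 numbered 2, and 1 (1.33%) with a variance trend or against a 1.2-fold change, where 4.7% and 1.13% of all genes did so. They numbered 3 (4%) without moderation, with only rows of 1 symbol, with means over a gene's rows or centred on genes as bright. The shares of all genes were then 5.78%, 6.67%, 6.71% and 5.3%, in that order. The members' shares in these settings were thus near or below those of all genes. The replicate numbers were not stated to mark a shared culture or day. The correlation of same-numbered arrays' deviations from the group means was 0.42 over all rows. After adjustment 0 members passed in a fit with a replicate block. In that fit 14 members (18.7%), all of them higher, had an unadjusted p under 0.05 (limma), against 11.5% of all genes in either direction. Without the block these shares were 2.67% and 5.59%. The median difference was between 0.12 and 0.17 with all 4 arrays. Moderation, the 1.2-fold test, filters, the replicate block and gene naming reuse the same group means, so they cannot change a member's difference. Agreement under them was fixed in advance and says nothing about stability. Of 468 values for 36 named members under all these settings, 463 kept their direction, most of them for that reason. Those that turned were Mrpl33 (-0.048 after quantile normalization, -0.010 after median centring), Mrpl23 (-0.0021 after quantile normalization), Mrpl41 (0.022) and Mrpl24 (0.001), both when centred on genes as bright, and the cause was not tested. Without moderation, rows with no spread gave no p.

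With 1 array left out, and a lone array taken to vary as the other group does, members higher ran from 35 to 71, members at an unadjusted p under 0.05 from 1 to 11 (of all genes, from 2.51% to 9.19%), the Mrpl median from -0.026 to 0.35 and the Mrps median from 0.0016 to 0.31. Each omission left the groups unequal in replicate number, so these values mix the shift with the gap between replicates. Of 36 named members, 16 never turned, a count without a share of all genes beside it. The ranges of those that did were Mrpl10 -0.35 to 0.021, Mrpl11 -0.067 to 0.56, Mrpl12 -0.011 to 0.59, Mrpl14 -0.23 to 0.072, Mrpl20 -0.18 to 0.79, Mrpl24 -0.11 to 0.057, Mrpl33 -0.016 to 0.048, Mrpl41 -0.15 to 0.14, Mrpl42 -0.025 to 0.42, Mrpl44 -0.039 to 0.29, Mrpl50 -0.20 to 0.57, Mrpl51 -0.071 to 0.65, Mrpl57 -0.48 to 0.083, Mrps11 -0.11 to 0.39, Mrps12 -0.032 to 0.21, Mrps17 -0.048 to 0.37, Mrps18c -0.11 to 0.33, Mrps28 -0.087 to 0.0089, Mrps34 -0.17 to 0.058, Mrps36 -0.14 to 0.0033.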
